A study of Homo sapiens with 6 samples.

Results

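The transcripts of 9 genes of serine synthesis and folate-borne one-carbon metabolism were followed in K562 cells with and without a truncating RUNX1 change. The genes were PHGDH, PSAT1, PSPH, SHMT1, SHMT2, MTHFD1, MTHFD2, MTHFD1L and TYMS, taken by name from a fixed list. All 9 were found among the 28395 genes of the deposited normalized count table and among the 60131 genes of the deposited RPKM table, where RPKM is reads per kilobase of transcript scaled to library size. RNA was sequenced from 3 libraries of K562 cells labelled RUNX1 R320*, in which a stop codon truncates the C-terminal end of RUNX1, and from 3 of K562 cells labelled WT for RUNX1. Cells of both genotypes were grown in RPMI-1640 with fetal bovine serum and antibiotics, and the labels name no treatment. K562 is an established human leukaemia line, and RUNX1 is a DNA-binding regulator of blood formation. The labels do not say how the change was made, on how many alleles it lies, whether the cells of a genotype are 1 clone, or whether the replicates are separate cultures. P-values therefore measure only the spread between these libraries, which may be technical, and a change common to the cells of 1 genotype cannot be told apart from an effect of the RUNX1 genotype.

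Serine is made from a glycolytic intermediate by PHGDH, PSAT1 and PSPH acting in sequence. The SHMT enzymes then move a carbon unit of serine onto tetrahydrofolate, SHMT2 in mitochondria and SHMT1 in the cytosol, and release glycine. In mitochondria MTHFD2 oxidises that carbon unit and MTHFD1L releases it as formate. The cytosolic enzyme MTHFD1 loads formate onto folate again for purine, thymidylate and methionine synthesis. TYMS uses the folate-borne carbon to make thymidylate for DNA. The transcription factor ATF4 is known to activate the serine synthesis genes, SHMT2 and MTHFD2 when amino acids are short, and MYC is known as an activator of nucleotide and one-carbon genes in growing cells.

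The libraries held between 29058471 and 31306435 reads assigned to genes, and replicates differed from each other by more than counting error, with a mean chi-square per gene of 5.22 to 8.66. RUNX1 itself had 5209, 5026 and 5261 normalized counts in R320* and 2969, 2922 and 2908 in WT (log2 fold change 0.82, limma adjusted p = 4.4e-11), which does not check the label, since a stop codon is not read from the amount of RNA. The K562 identity was checked on 10 erythroid markers, all of which had at least 50 normalized counts in every library and which summed to 107749 to 117728 in R320* and 91354 to 94689 in WT. CD2, CD8A, PAX5, FCN1, S100A8, S100A9, CDH5 and KDR, which define other cell types, had no read in any library. Of 5 T cell markers CD3D and CD3G exceeded 50 normalized counts in every library, and the list summed to 629.9 to 727 in R320* and 916 to 988 in WT. Of 5 fibroblast markers COL1A1 and COL1A2 did so, with sums of 2693 to 2919.8 in R320* and 3424 to 3516 in WT. Of 4 epithelial markers EPCAM did so, with sums of 5028 to 5274 in R320* and 2296 to 2349.9 in WT. The B cell list of 4 summed to at most 132, the monocyte list of 5 to at most 17.9 and the endothelial list of 4 to at most 8.37 in any library. The part of these differences in the results below was not tested.

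The genes of the pathway split by step in normalized counts. Transcripts of serine synthesis, and of SHMT2 and MTHFD2 in mitochondria, were lower in R320* cells. Those of MTHFD1, MTHFD1L and TYMS were higher, and SHMT1 did not pass the test. In RPKM PHGDH, MTHFD1L and SHMT1 did not pass the test. In normalized counts 3 of the 9 genes were called higher and 5 lower, so 8 of 9 were called, against 53.7% of the 14299 genes tested. The shares of all genes called were 26.4% higher and 27.4% lower. A gene was called where limma's Benjamini-Hochberg adjusted p was below 0.05. All 9 genes passed the minimum of 10 normalized counts in 3 libraries in both genotypes. The genotypes did not overlap for 8 of the 9 genes, against 59.8% of all genes tested. The median absolute log2 fold change was 0.49 over the 9 genes and 0.27 over all genes tested. The signed median was -0.37 over the 9 and 0.0062 over all. Each log2 fold change is the R320* mean less the WT mean of log2(normalized count + 1), or of log2(RPKM + 0.1) where RPKM is named, and means are given with their SD over 3 libraries. In bulk RNA, fewer cells making a transcript and less of it per cell cannot be told apart.

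**Figure D1:**
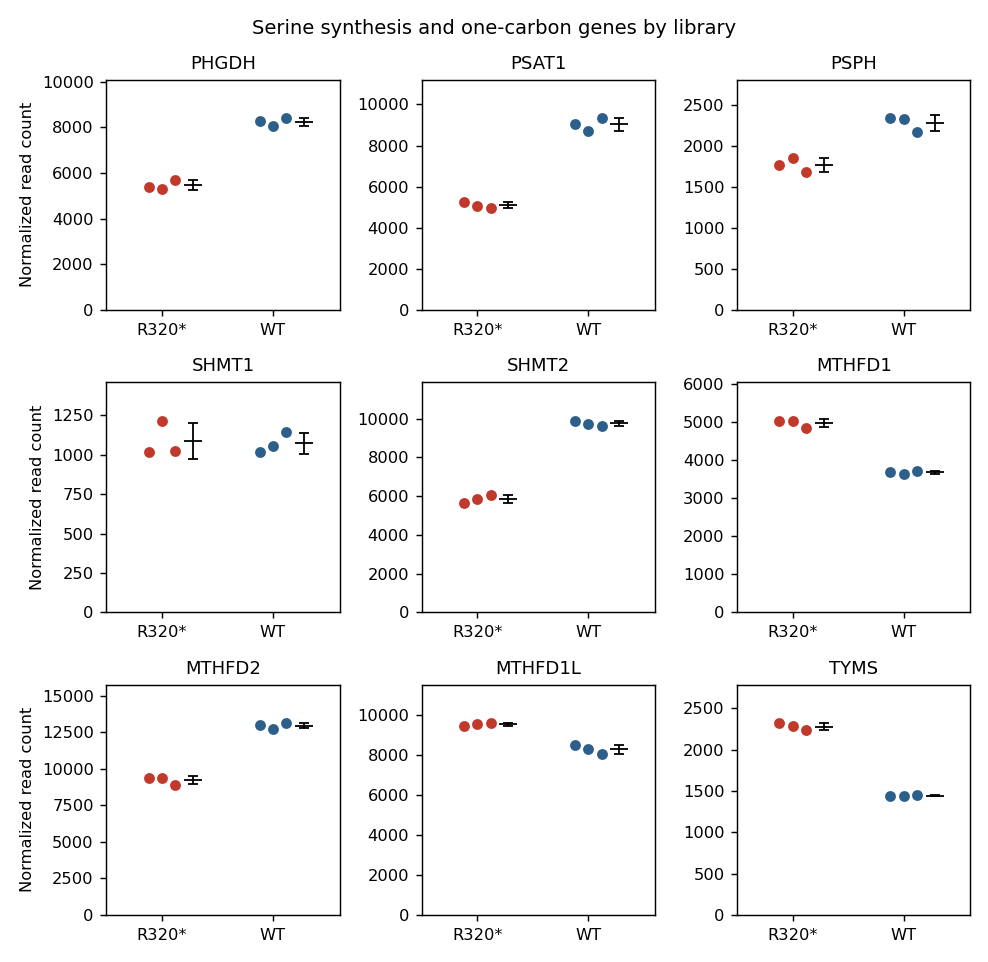
Normalized read counts of the 9 genes in each library, with R320* to the left of WT in each panel, points for libraries and the black mark and bar for the mean and SD. The y axes start at 0 and differ between panels, and only SHMT1 shows overlapping genotypes.

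PSAT1, the aminotransferase of the second step of serine synthesis, showed the largest change of the 9. It had 5258, 5049 and 4965 normalized counts in the R320* libraries, against 9032, 8707 and 9334 in the WT libraries. Every R320* library lay far below every WT library, and the R320* mean was 0.564 of the WT mean. The log2 fold change was -0.83 with SE 0.039 (limma adjusted p = 3.1e-11), and 15.9% of all tested genes had a larger absolute value. PHGDH, the dehydrogenase that opens the pathway, had 5382, 5311 and 5703 normalized counts in R320* and 8294, 8059 and 8406 in WT. Its genotypes did not overlap, and its log2 fold change was -0.60 with SE 0.039 (limma adjusted p = 1.65e-09). PSPH, the phosphatase of the last step, had 1764, 1854 and 1686 normalized counts in R320* and 2338, 2325 and 2170.1 in WT. It fell less, with a log2 fold change of -0.37 with SE 0.053 (limma adjusted p = 2.11e-05). All 3 serine synthesis genes were thus lower in R320*, at between 0.564 and 0.776 of their WT means.

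In RPKM PSAT1 and PSPH fell by like amounts, and PHGDH did not pass the test. PSAT1 was at 96.4 ± 0.364 RPKM in R320* and 165 ± 5.10 in WT (log2(RPKM + 0.1) fold change -0.78, limma adjusted p = 2.46e-05). PSPH was at 44.0 ± 1.36 RPKM in R320* and 58.4 ± 4.19 in WT (log2 fold change -0.41, limma adjusted p = 0.00295). PHGDH had 110, 143 and 152 RPKM in the R320* libraries, against 177, 159 and 164 in the WT libraries. The lowest value belonged to R320* replicate 1, whose normalized count of PHGDH was between those of the other R320* libraries. The log2 fold change of PHGDH in RPKM was -0.32 (SE 0.12, limma adjusted p = 0.0908). It was -0.17 without that library (limma adjusted p = 0.0683), and over the libraries left out in turn it ranged from -0.41 to -0.17. Among the 17769 genes tested in RPKM, 31.9% were called, 15.1% higher and 16.8% lower. Of the 9 genes 2 were called higher and 4 lower there, and 7 did not overlap between the genotypes, against 47.0% of all genes tested.

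**Figure D2:**
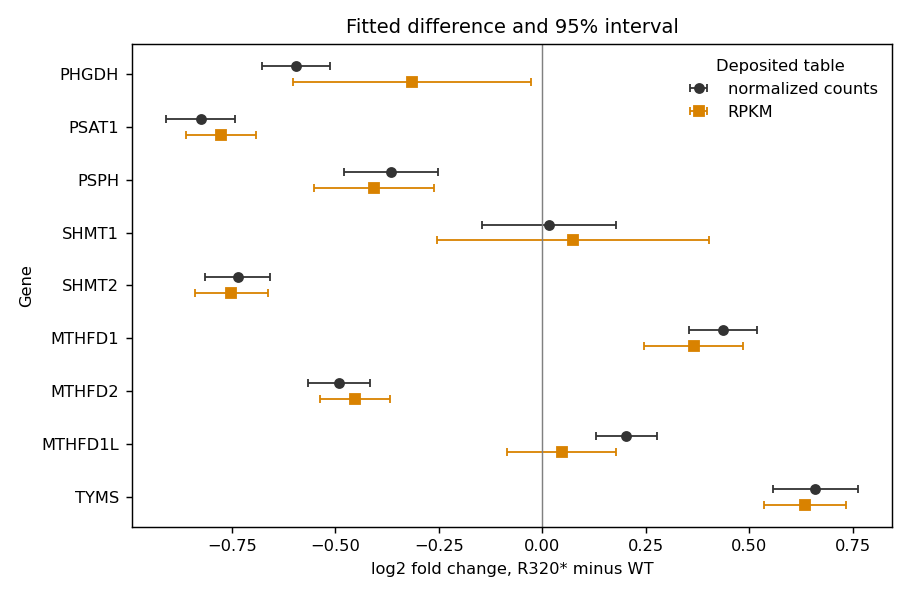
Log2 fold changes, R320* minus WT, of the 9 genes with 95% intervals from limma, for normalized counts (circles) and RPKM (squares). The tables lie close together for PSAT1, PSPH, SHMT2, MTHFD1, MTHFD2 and TYMS, and apart for PHGDH and MTHFD1L, whose RPKM values did not pass the test.

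The mitochondrial and cytosolic forms of serine hydroxymethyltransferase differed in what they showed. SHMT2, the mitochondrial form, had 5663, 5852 and 6062 normalized counts in R320* and 9900.4, 9741 and 9631 in WT. The genotypes lay well apart, with a log2 fold change of -0.74 with SE 0.037 (limma adjusted p = 6.24e-11). In RPKM SHMT2 was at 92.9 ± 2.33 in R320* and 156 ± 3.79 in WT (log2 fold change -0.75, limma adjusted p = 3.33e-05). SHMT1, the cytosolic form, had 1016, 1217 and 1026 normalized counts in R320* and 1018, 1054 and 1143 in WT. These values overlapped, and the log2 fold change was 0.016 with a 95% interval of -0.14 to 0.18 (limma adjusted p = 0.871). In RPKM SHMT1 had 19.5, 25.9 and 18.2 in R320* and 18.5, 19.7 and 21.7 in WT, and the interval of its log2 fold change was wider, -0.26 to 0.40 (limma adjusted p = 0.732). The ratio of SHMT2 to SHMT1 in RPKM was 4.65, 3.58 and 5.22 in the R320* libraries and 8.68, 7.84 and 7.12 in the WT libraries. Mitochondrial SHMT2 thus stayed the more abundant transcript in every library, and the ratios of the genotypes did not overlap. No test was run on this ratio.

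Among the enzymes that carry the unit onward, MTHFD2 fell. This mitochondrial dehydrogenase and cyclohydrolase had 9377, 9378 and 8877 normalized counts in R320*, against 12978, 12739 and 13123 in WT. No R320* library came near the WT range, and the log2 fold change was -0.49 with SE 0.035 (limma adjusted p = 5.16e-09). In RPKM it was at 195 ± 5.06 in R320* and 267 ± 6.23 in WT (log2 fold change -0.45, limma adjusted p = 0.000209). Its paralog MTHFD2L also fell in normalized counts, to 520 ± 50.8 in R320* against 666 ± 22.4 in WT (log2 fold change -0.36, limma adjusted p = 0.00247), and lay among neighbours on chromosome 4 with a median of -0.22. With that median subtracted, its log2 fold change was -0.14 and was no longer called (limma statistics, adjusted p = 0.203). The RPKM ratio of MTHFD2 to MTHFD2L was 7.41, 8.65 and 7.49 in R320* and 8.02, 8.18 and 8.26 in WT, so that the genotypes overlapped.

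MTHFD1L, the mitochondrial synthetase that releases formate, went the other way by a small amount in counts. It had 9481, 9553 and 9611 normalized counts in R320* and 8519.7, 8289 and 8084 in WT. The R320* libraries lay above the WT libraries, with a log2 fold change of 0.20 with SE 0.035 (limma adjusted p = 0.00011). In RPKM MTHFD1L had 107, 103 and 101 in R320* and 108, 95.5 and 97.8 in WT. The genotypes overlapped there, and the log2 fold change was 0.047 with a 95% interval of -0.085 to 0.18 (limma adjusted p = 0.567). A rise of MTHFD1L was therefore seen in 1 of the tables only.

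MTHFD1, the trifunctional cytosolic enzyme, was higher in R320* in both tables. It had 5042, 5041 and 4856 normalized counts in R320* and 3691, 3628 and 3714 in WT, with no overlap. The log2 fold change was 0.44 with SE 0.039 (limma adjusted p = 7.39e-08). In RPKM it was at 67.1 ± 1.66 in R320* and 52.1 ± 2.65 in WT (log2 fold change 0.37, limma adjusted p = 0.002). The RPKM ratio of MTHFD1L to MTHFD1 was 1.56, 1.53 and 1.54 in R320* and 2.06, 1.93 and 1.79 in WT. The mitochondrial transcript remained the higher of the pair in every library.

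TYMS, thymidylate synthase, rose in both tables, and its values carry a reservation about counting. It had 2322, 2280.2 and 2234 normalized counts in R320* and 1437, 1437 and 1451 in WT. The log2 fold change was 0.66 with SE 0.048 (limma adjusted p = 7.22e-09), and 21.0% of all tested genes had a larger absolute change. In RPKM TYMS had 284, 310 and 298 in R320* and 193, 186 and 194 in WT (log2 fold change 0.63, limma adjusted p = 9.67e-05). TYMS gave 7.50 normalized counts for each RPKM as the median over libraries, while the medians of the other 8 genes were between 39.5 and 87.6. In GENCODE release 29, 46.6% of the exon bases of TYMS are also exon bases of genes on the opposite strand, 967 of them shared with ENOSF1 and 183 with the long noncoding RNA TYMSOS. The use of strand in counting is not given in the sources used here, so the reads of these genes cannot be told apart, and the part of the overlap in the low count was not tested. ENOSF1 rose as well, to 3961 ± 62.5 normalized counts in R320* against 2007 ± 35.8 in WT (log2 fold change 0.98, limma adjusted p = 1.14e-11). TYMSOS was at 232 ± 25.6 in R320* and 181 ± 16.3 in WT (log2 fold change 0.36, limma adjusted p = 0.0431). It lost that call in several alternatives, among them leaving out R320* replicate 1 or 3, or WT replicate 1 or 2. Its limma adjusted p ranged from 0.0255 to 0.147 over its alternatives.

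Exons are shared in smaller parts by other genes of the 9. MTHFD2 shares 33.2% of its exon bases with opposite-strand genes, 1324 of 1619 with SLC4A5. MTHFD1 shares 11.04%, SHMT2 9.51% and SHMT1 3.70%, while PHGDH, PSAT1, PSPH and MTHFD1L share none. Pseudogenes named after the genes had low values. The RPKM of SHMT1P1 was at most 0.265, that of MTHFD2P1 at most 0.535 and that of PSAT1P2 at most 0.0959 in any library. PSPHP1, an unprocessed pseudogene of PSPH, was listed at 0 in 4 libraries, at 2.47 RPKM in R320* replicate 3 and at 6.75 RPKM in WT replicate 1. Whether reads of PSPH were assigned to it was not tested.

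The order of the transcripts, compared in RPKM because it accounts for length, differed between the genotypes. In R320* cells TYMS was highest at 297 ± 13.0 RPKM, followed by MTHFD2, PHGDH, MTHFD1L, PSAT1, SHMT2, MTHFD1, PSPH and SHMT1 at 21.2 ± 4.13. In R320* no neighbours in this order overlapped between libraries, although PSAT1 and SHMT2 came close, with a lowest PSAT1 value of 96.1 and a highest SHMT2 value of 95.2. In WT cells MTHFD2 was highest at 267 ± 6.23 RPKM, followed by TYMS, PHGDH, PSAT1, SHMT2, MTHFD1L, PSPH, MTHFD1 and SHMT1 at 19.95 ± 1.58. In WT the ranges of PHGDH and PSAT1 overlapped, as did those of PSAT1 and SHMT2, so their order there is not set. The place of TYMS rests on its RPKM, which stands apart from its count as given above. In normalized counts, which are not scaled to length, TYMS averaged 2279 in R320* and 1442 in WT, against 9211 and 12946 for MTHFD2, and its level lay at percentile 72.8 of the tested genes. By their mean RPKM over all libraries the 9 genes lay between percentile 69.3 (SHMT1) and percentile 97.8 (TYMS) of the tested genes.

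**Figure D3:**
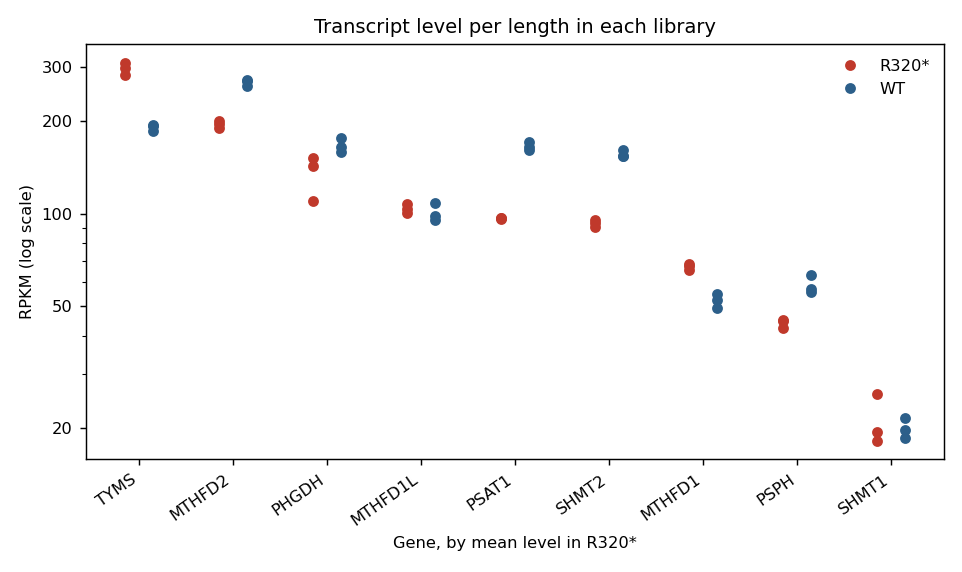
RPKM of the 9 genes in each library on a log axis, ordered by the mean in R320*, with R320* points left of WT points for each gene. TYMS, whose RPKM is high for its normalized count, lies above MTHFD2 in R320* and below it in WT, and SHMT1 is lowest in every library.

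The positions of the genes were compared with the log2 fold changes of their neighbours, since most tested genes of some chromosome stretches were called in 1 direction. For each gene the 50 nearest tested genes on its chromosome were taken. SHMT2 (chromosome 12, 57229711 to 57234935, GRCh38) lay in such a stretch. Of its 50 neighbours 41 were called lower in R320* and 0 higher, and 9 were not called. The median of these neighbours was -0.69, below the neighbour medians of all but 0.396% of genes. With that median subtracted, the log2 fold change of SHMT2 was -0.048 (limma statistics, adjusted p = 0.296), so its fall was close in size to the median of its neighbours. The neighbours' starts ran over positions 56416363 to 57941567 of the chromosome. The part of the neighbourhood in the fall of SHMT2 was not tested.

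The falls of PSAT1, PHGDH, PSPH and MTHFD2 stood apart from the medians of their neighbours. The neighbour median was -0.023 for PSAT1 (chromosome 9, 78297125 to 78330093), 0.11 for PHGDH (chromosome 1, 119711934 to 119744215), 0.10 for PSPH (chromosome 7, 56011064 to 56051444) and 0.089 for MTHFD2 (chromosome 2, 74198615 to 74217565). With the medians subtracted their log2 fold changes were -0.80, -0.70, -0.47 and -0.58, with limma adjusted p of at most 1.65e-06. MTHFD1 (chromosome 14, 64388353 to 64460025) and MTHFD1L (chromosome 6, 150865702 to 151101887) lay among neighbours with medians of -0.049 and -0.16, and less these medians their log2 fold changes were 0.49 and 0.36 (limma adjusted p = 2.6e-08 and 2.26e-07). TYMS (chromosome 18, 657653 to 673578) lay among neighbours that were higher, 32 of 50 called higher and 4 lower, with a median of 0.29. Its log2 fold change less that median was 0.37 (limma statistics, adjusted p = 8.93e-06). SHMT1 (chromosome 17, 18327873 to 18363550) had a neighbour median of 0.095. The neighbours of all these genes were spread over wider stretches than those of SHMT2. Their starts ran, for example, over positions 68241983 to 88129305 for PSAT1 and 109065 to 12785478 for TYMS. A stretch as short as that of SHMT2 may therefore not show in these medians.

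**Figure D4:**
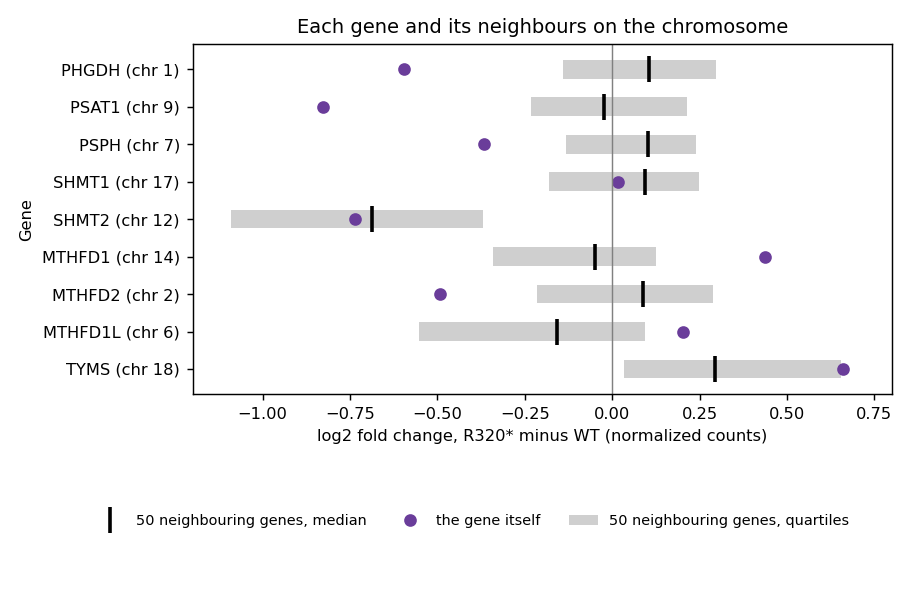
Log2 fold change, R320* minus WT in normalized counts, of each of the 9 genes (circle) beside the median (black mark) and quartiles (grey bar) of its 50 nearest tested genes. SHMT2 lies inside the lowered range of its neighbours, while PSAT1, PHGDH, PSPH, MTHFD2, MTHFD1 and MTHFD1L lie outside the quartiles of theirs. TYMS lies just above the upper quartile of its neighbours (0.660 against 0.654).

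Stretches before the transcription starts are printed for PSAT1, which fell most, and for MTHFD1L and TYMS, which rose in counts, because these genes moved in different directions. They are RefSeq windows of GRCh38.p14, of which 7 of the 9 genes had at least 1, and each covers up to 250 bases before a start. All windows of MTHFD1L precede later starts inside the annotated span of the gene, which begins at 150865702. None of them is the stretch before its first start. The letters searched for on both strands were TGATGNAA, the form bound by ATF4 with C/EBP factors, CACGTG, the E-box bound by MYC with MAX, and TGTGGT and TGCGGT, forms bound by RUNX proteins. Matches are in capitals, and no motif overlaps another in these stretches. Bases in an annotated exon were left out of the TYMS stretch.
PSAT1, chr9:78296875-78297124, plus strand: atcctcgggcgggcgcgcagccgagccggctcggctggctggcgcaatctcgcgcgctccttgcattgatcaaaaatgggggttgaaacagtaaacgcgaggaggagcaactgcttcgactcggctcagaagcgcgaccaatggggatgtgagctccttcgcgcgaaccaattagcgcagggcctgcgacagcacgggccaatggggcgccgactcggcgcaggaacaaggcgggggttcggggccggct
MTHFD1L, chr6:150866083-150866332, plus strand: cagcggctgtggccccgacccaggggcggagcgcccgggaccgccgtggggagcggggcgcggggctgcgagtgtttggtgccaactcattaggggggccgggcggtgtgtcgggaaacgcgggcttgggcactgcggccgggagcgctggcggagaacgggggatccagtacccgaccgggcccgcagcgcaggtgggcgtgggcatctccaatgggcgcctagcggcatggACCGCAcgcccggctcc
TYMS, chr18:657403-657603, plus strand: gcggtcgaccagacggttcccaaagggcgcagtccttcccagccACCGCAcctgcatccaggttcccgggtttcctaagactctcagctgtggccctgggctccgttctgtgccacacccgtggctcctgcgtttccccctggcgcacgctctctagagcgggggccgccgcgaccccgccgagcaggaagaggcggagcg

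Short stretches show the matches in windows not printed whole, because annotated exons cover part of them or, for MTHFD1, all of the window.
MTHFD1 E-box, chr14:64388323-64388352, plus strand: tggccagtccctaagCACGTGggttgggtt
MTHFD1L E-box, chr6:150866320-150866349, plus strand: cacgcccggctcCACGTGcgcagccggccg
MTHFD1L ATF4-C/EBP form, chr6:150866346-150866375, plus strand: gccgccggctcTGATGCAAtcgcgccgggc
Windows of MTHFD1 and MTHFD1L held CACGTG, found in 6.34% of all 35116 windows. MTHFD1L also held TGATGNAA, found in 3.14% of windows. MTHFD1L and TYMS held TGCGGT on the minus strand, and one or the other RUNX form was found in 16.3% of all windows. The windows of PHGDH, PSAT1, SHMT1 and MTHFD2 held none of these letters, which says nothing of binding elsewhere or of binding through other letters. The matches are descriptions of sequence and were not tested against the expression values.

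Of 14 tested folate enzymes and carriers outside the 9, 5 were called higher, SLC19A1, SLC46A1, FPGS and MTFMT among them, and 5 lower, FOLR1, ALDH1L2, MTHFD2L and GGH among them. These counts stand beside 26.4% of all genes called higher and 27.4% lower. FPGS and MTFMT were not called in RPKM (limma adjusted p = 0.307 and 0.127). The median of the list was 0.072 on the log2 scale, against 0.0062 over all genes. FOLR1, a folate receptor of low abundance here, fell to 17.6, 19.8 and 11.4 normalized counts in R320* against 121, 127 and 109 in WT (log2 fold change -2.83, limma adjusted p = 3.79e-07). ALDH1L2, a mitochondrial enzyme that oxidises formyl-folate and a known ATF4 target, fell to 1657 ± 99.5 in R320* against 2642 ± 160.1 in WT (log2 fold change -0.67, limma adjusted p = 4.75e-08). ALDH1L2 lies on chromosome 12 among neighbours with a median of -0.63, and its log2 fold change less that median was -0.046 (limma statistics, adjusted p = 0.535). SLC19A1, the reduced folate carrier, rose to 3482 ± 219 in R320* against 2605 ± 21.2 in WT (log2 fold change 0.42, limma adjusted p = 1.88e-06). It lies on chromosome 21 among neighbours with a median of 0.28, and its log2 fold change less that median was 0.13 (limma statistics, adjusted p = 0.0293). The number called higher was 3 in place of 5 without WT replicate 1, and 3 to 4 over the libraries left out in turn.

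Of 10 tested genes of serine and glycine use and transport, 2 were called higher (GCAT and GCSH) and 6 lower, beside 26.4% and 27.4% of all genes, and the median of the list was -0.19 on the log2 scale. In RPKM 2 were called higher and 3 lower, beside 15.1% and 16.8% of all genes tested in RPKM. DLD, SFXN1 and SFXN3 lost their calls there, and the log2 fold changes of DLD and SFXN1 in RPKM were -0.021 and -0.036. SLC1A4, a plasma membrane carrier of serine and other neutral amino acids, had 850.1, 811 and 865 normalized counts in R320* and 2995, 3044 and 2896 in WT. Its log2 fold change was -1.82 with SE 0.053 (limma adjusted p = 8.14e-14), larger in size than that of any of the 9 genes, and -1.75 in RPKM (limma adjusted p = 6.95e-06). SFXN3, of the mitochondrial serine carrier family, fell to 52.7 ± 11.3 in R320* against 154 ± 6.95 in WT (log2 fold change -1.55, limma adjusted p = 9.09e-06), a call that was not made in RPKM (limma adjusted p = 0.051). SDSL, a serine dehydratase-like enzyme on chromosome 12, fell to 93.6 ± 35.7 against 257 ± 17.1 (log2 fold change -1.52, limma adjusted p = 3.25e-05), among neighbours with a median of -0.56. GCAT, which splits a threonine product into glycine, rose to 2198 ± 134 against 1547 ± 99.9 (log2 fold change 0.51, limma adjusted p = 2.54e-06). GLDC, the decarboxylase of the glycine cleavage system, had no normalized count in any library, and its RPKM was listed at 0 in R320* and at 0.387, 0.153 and 0.154 in WT.

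Purine synthesis and the methionine cycle draw on the carbon units. Of the 6 genes of de novo purine synthesis 5 were called higher and 0 lower, beside 26.4% and 27.4% of all genes, and the median of the list was 0.28 on the log2 scale. GART, which takes up formyl groups from folate, rose to 15369.8 ± 70.5 in R320* against 12042 ± 534 in WT (log2 fold change 0.35, limma adjusted p = 4.22e-07). PPAT, PFAS and ADSL rose with log2 fold changes of 0.37, 0.36 and 0.21 (limma adjusted p of at most 0.000405). PAICS was called at a limma adjusted p of 0.0491 with a log2 fold change of 0.095, although its genotypes overlapped in normalized counts. ATIC, the other formyl-folate user, was at 5183 ± 81.0 in R320* and 5162 ± 109 in WT (log2 fold change 0.0060, 95% interval -0.074 to 0.085, limma adjusted p = 0.906). In the methionine cycle and transsulfuration list 4 of 10 tested genes were called higher (AHCY, MTR, MAT2A and BHMT2) and 3 lower (MAT2B, CTH and MAT1A), with a median of 0.10. MAT1A and BHMT2 passed the count minimum in 1 genotype only, so that a difference was built into their selection. Without these genes 3 of 8 were called higher and 2 lower, and the median was again 0.10. Both counts stand beside 26.4% of all genes called higher and 27.4% lower. AHCY, which clears S-adenosylhomocysteine, rose to 16534 ± 560.1 in R320* against 11781 ± 217 in WT (log2 fold change 0.49, limma adjusted p = 5.33e-09). MTR, methionine synthase, rose to 7581 ± 225 against 5905 ± 178 (log2 fold change 0.36, limma adjusted p = 6.87e-07), while CTH, the last enzyme of transsulfuration, fell to 719.7 ± 54.9 against 974 ± 103 (log2 fold change -0.43, limma adjusted p = 0.000369). MAT2B, the regulatory subunit of methionine adenosyltransferase, fell to 1470.5 ± 103 against 2091 ± 30.3 (log2 fold change -0.51, limma adjusted p = 1.07e-06), on chromosome 5 among neighbours with a median of -0.33.

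ATF4 and genes known as its targets outside the pathway were mostly lower in R320*. Of 12 such genes 10 were called lower and 1 higher, beside 27.4% and 26.4% of all genes, and the median of the list was -0.46 on the log2 scale. PYCR1 was not called (limma adjusted p = 0.0719). In RPKM 9 were called lower and 2 higher, beside 16.8% and 15.1% of all genes tested in RPKM. PYCR1 was called higher there (log2 fold change 0.13, limma adjusted p = 0.0264), and SLC7A11 was not called (limma adjusted p = 0.124). ATF4 itself had 10767, 11461 and 11713 normalized counts in R320* and 14169, 14565 and 14271 in WT (log2 fold change -0.34, SE 0.037, limma adjusted p = 7.33e-07). TRIB3, a pseudokinase induced by amino acid shortage, fell to 1942 ± 54.5 in R320* against 5068 ± 181 in WT (log2 fold change -1.38, limma adjusted p = 2.75e-13). ASNS, asparagine synthetase, fell to 15146 ± 581 in R320* against 20758 ± 378 in WT (log2 fold change -0.46, limma adjusted p = 1.4e-08). SESN2, a sensor of leucine, fell by 0.89 on the log2 scale, and DDIT3, a stress transcription factor, by 1.11. DDIT3 lies in the same chromosome 12 stretch as SHMT2, and its log2 fold change less the neighbour median was -0.42 (limma statistics, adjusted p = 0.000635). ALDH18A1, of proline synthesis, was the gene of the list called higher in normalized counts, with a log2 fold change of 0.48. Without R320* replicate 1, or with upper quartile scaling, 2 genes were called higher. MYC rose over the same libraries, to 25021 ± 92.0 normalized counts in R320* against 11247 ± 164 in WT (log2 fold change 1.15). It lies on chromosome 8 among neighbours with a median of 0.37, 32 of 50 called higher and 5 lower. Less that median its log2 fold change was 0.79 (limma statistics, adjusted p = 3.54e-12). RNA amounts do not measure ATF4 or MYC protein, and the part of either in the values of the 9 genes was not tested.

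**Figure D5:**
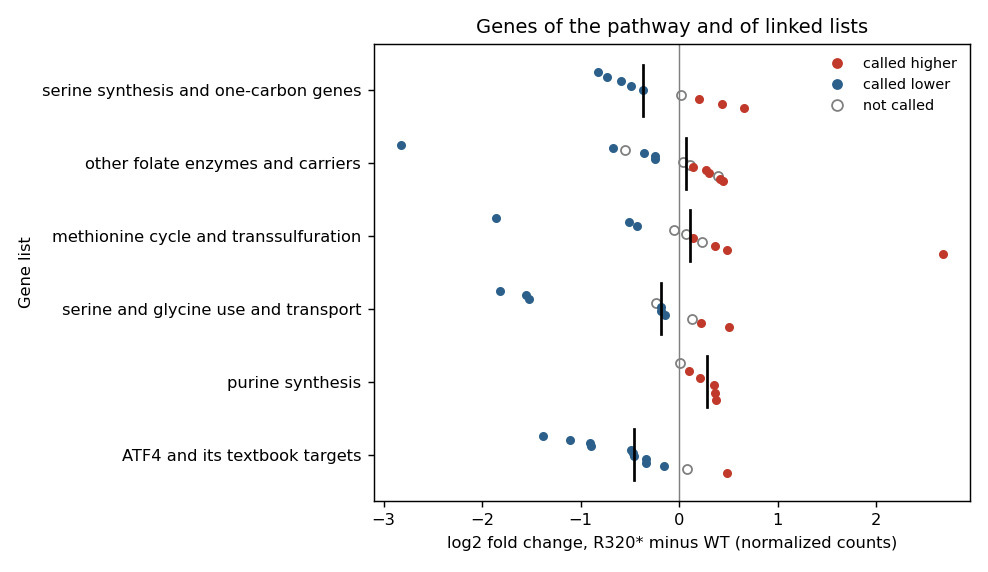
Log2 fold changes, R320* minus WT in normalized counts, of the tested genes of each list, with filled points for genes called higher (red) or lower (blue), open points for genes not called, and a black line at the list's median. The medians of the ATF4 and purine lists are -0.46 and 0.28.

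The transcripts whose pattern over the 6 libraries was nearest to that of PSAT1, among tested genes with a mean of at least 50 normalized counts, were SERPINB1, SLC25A3 and VPS29. Likeness was the Euclidean distance between log2(normalized count + 1) values centred on each gene's mean, and these genes lay at 0.0449, 0.0645 and 0.0774 from PSAT1. Their log2 fold changes were -0.86, -0.81 and -0.85, beside -0.83 for PSAT1. This likeness of fold changes was built into the choice, since the distance spans both genotypes. The measure covers 6 libraries of 2 genotypes and was used as a description.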

How the data were processed

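RNA-seq libraries of R320* and WT K562 cells (n = 3 each) were grouped by their titles. The submitters' processing notes name hg38 and the tools HISAT2, featureCounts, DESeq2 and Salmon. Which of them made each table, and with which settings and strand, is not given in the sources used here. The deposited signal values are normalized counts, read counts over a factor for each library set by the authors: in every library 100% of values were whole multiples of the smallest value (tolerance 1e-06), worth 0.953 to 1.05 normalized counts per read. The RPKM values were deposited by the authors under that name, and their libraries summed to between 721735 and 786389. A listed 0 there may be a failed estimate, and no depth belongs to the RPKM values. RefSeq annotation of GRCh38.p14 named 27745 of the Entrez identifiers, and 650 carried no symbol.

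Whole tables were fitted with limma 3.58.1 in R 4.3.3 (empirical Bayes with intensity trend, no replicate block) on log2(normalized count + 1) for genes that reached 10 in 3 or more libraries, and on log2(RPKM + 0.1) for genes that reached 0.5 in 3 or more. The Benjamini-Hochberg adjustment ran over all genes tested in a table. Adding 1 or 0.1 understates changes of low genes. The method was tested on simulated data. Neighbours are the 50 nearest tested genes by start, and for the subtraction every gene's neighbour median was taken from its fold change, as a fixed value, before adjustment. Python 3.11.15, NumPy 2.4.6, pandas 2.3.3, SciPy 1.17.1 and matplotlib 3.10.9 were used. Lists were described by counts and medians, with no list test.

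The genes, lists and tests were chosen with earlier results of these data known. Named genes were the 9, up to 4 of each other list with the smallest adjusted p, ATF4, MYC, overlapping or copied genes, and the 3 nearest to the most changed gene. RUNX1, and genes of the lists outside that rule (GLDC, ATIC, ALDH18A1 and those that complete a count), were named after their values were seen. Alternatives were other pseudocounts, filters, scalings and variance models, the replicate block, libraries left out and neighbour medians subtracted. Some genes of the lists are counted but not reported here by name.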

Additional observations from a re-analysis of the deposited data

How the results depend on the processing

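All 8 calls of the 9 genes in normalized counts, and all 6 in RPKM, kept their direction and stayed called under other pseudocounts, filters, scalings (trimmed mean of M-values and upper quartile), no intensity trend, the replicate block and each library left out, with the exception of SHMT2 once its neighbour median was subtracted (-0.048, limma statistics, adjusted p = 0.296). SHMT1, not called in any setting, changed sign: its log2 fold change in normalized counts was -0.078 with the neighbour median subtracted and -0.068 to 0.064 over the libraries left out, and in RPKM -0.080 to 0.17 over the libraries left out. Without the intensity trend 3 other folate genes were called higher in place of 5, and 3 to 4 over the libraries left out. With upper quartile scaling 2 genes of the ATF4 list were called higher in place of 1, and 1 to 2 over the libraries left out. Purine genes called higher numbered 4 to 5 over the libraries left out. The labels do not say whether the replicate numbers pair the libraries. Same-numbered deviations correlated at 0.0316, -0.00311 and -0.00325, within the range of -0.0362 to 0.0379 of differently numbered ones. No shared deviation was thus seen, which does not show how the libraries were handled. With the replicate block 3 of the 9 genes were called higher and 5 lower, and 7854 of all genes were called in place of 7685. In RPKM the block left 2 higher and 4 lower. Of 45 fitted results for single genes, 41 kept direction and side of the threshold under the alternatives run on them, the others being SHMT1 in each table, SHMT2 and TYMSOS. In that tally the neighbour median was subtracted for the 9 genes only, and subtracting it also ended the call of ALDH1L2 (-0.046, limma statistics, adjusted p = 0.535). Count-model tests on recovered reads were planned and not run. With 3 libraries a genotype, small differences such as those of SHMT1 and of MTHFD1L in RPKM stay within the intervals given.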
